A study of Mus musculus with 4 samples.

Results

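The cells described here are adult Achilles tendon cells that carried transcripts of Angptl7 and Chad with little or no transcript of tenomodulin (Tnmd). They were chosen by their counts of UMIs, the unique molecular identifiers that each mark 1 captured transcript. A member had at least 5 UMIs of Angptl7, at least 3 of Chad and fewer than 2 of Tnmd. It also had no more than 1 UMI of the leukocyte gene Ptprc and 0 of the endothelial gene Cdh5. Only barcodes with 500 or more genes, 1000 or more UMIs and no more than 15% of UMIs from mitochondrial genes were considered. The rule found 688 of 6113 cells in the uninjured adult library and 4 of 4625 in the injured adult library, or 692 of 10738 adult cells and of 36052 cells in the whole series. Because these genes chose the cells, their levels in members are a description and support nothing else.

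The series measured dissociated mouse Achilles tendon, which joins the calf muscles to the heel, by droplet-based single-cell RNA sequencing. It has 4 libraries: uninjured and injured tendon of neonates at postnatal day 3, and uninjured and injured tendon of adults aged 6 to 8 weeks. Each group was 1 library. Differences therefore lack a replicate check and carry no test, and every interval is a 95% interval for counting error only. The strain, sex, number of mice, kind of injury and interval before harvest are not given in the sources used here. Members were compared with cells of the same library that had at least 2 Tnmd UMIs under the same limits on Ptprc and Cdh5, called Tnmd cells below.

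Tenocytes are the fibroblasts that lie between the collagen I fibres of tendon, and tenomodulin, a transmembrane glycoprotein, is among their best known surface markers. Its expression in development depends on the transcription factor scleraxis (Scx). Angptl7 encodes a secreted angiopoietin-like protein, Chad encodes chondroadherin, a leucine-rich matrix protein that binds collagen and was found in cartilage, Comp encodes the cartilage oligomeric matrix protein of the thrombospondin family, Cilp2 encodes a cartilage intermediate layer protein, and Clu encodes clusterin, a secreted chaperone that inhibits complement.

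The 250 bases before the start of Angptl7, Chad, Tnmd and Cytl1 are printed because 3 of them chose the cells and Cytl1 had the highest ratio between members and Tnmd cells. They are RefSeq sequences of the GRCm38.p6 build, each 5′ to 3′ on the strand of its gene, at chr4:148500463-148500712 (minus strand), chr11:94564797-94565046 (plus strand), chrX:133850758-133851007 (plus strand) and chr5:37735269-37735518 (plus strand). Capitals mark a match, on either strand, to CAGATG (an E-box form that basic helix-loop-helix factors such as Scx can bind), ACAAAG (a core bound by SOX factors) or TGTTCT (a half-site of the glucocorticoid receptor).
Angptl7: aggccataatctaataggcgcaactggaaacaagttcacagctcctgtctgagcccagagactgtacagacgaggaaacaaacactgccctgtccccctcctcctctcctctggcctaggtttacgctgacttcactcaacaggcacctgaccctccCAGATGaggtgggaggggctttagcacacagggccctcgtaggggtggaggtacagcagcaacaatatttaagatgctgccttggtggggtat
Chad: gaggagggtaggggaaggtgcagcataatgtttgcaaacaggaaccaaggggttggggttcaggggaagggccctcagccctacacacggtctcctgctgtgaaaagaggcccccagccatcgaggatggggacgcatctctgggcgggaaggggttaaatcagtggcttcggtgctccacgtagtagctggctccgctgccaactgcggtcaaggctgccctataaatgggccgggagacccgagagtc
Tnmd: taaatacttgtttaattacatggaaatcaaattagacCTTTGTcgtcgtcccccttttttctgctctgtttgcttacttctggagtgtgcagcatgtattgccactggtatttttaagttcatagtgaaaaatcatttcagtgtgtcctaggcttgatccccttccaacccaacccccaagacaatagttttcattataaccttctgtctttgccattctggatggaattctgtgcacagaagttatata
Cytl1: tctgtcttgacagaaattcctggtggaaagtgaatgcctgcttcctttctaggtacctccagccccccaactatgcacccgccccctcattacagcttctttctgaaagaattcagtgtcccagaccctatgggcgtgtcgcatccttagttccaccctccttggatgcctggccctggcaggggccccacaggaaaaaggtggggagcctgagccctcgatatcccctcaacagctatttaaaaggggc
Angptl7 held 1 E-box match and Tnmd 1 SOX match, while Chad and Cytl1 held none of the 3 motifs in this window. Of all 32851 promoters in the table, 14.4% held the E-box form, 16.5% the SOX core and 16.1% the half-site. Sequences were found for 21 of the 30 genes that chose, mark or are named for these cells, as 27 promoters, of which 5 held the E-box form, 6 the SOX core and 1 the half-site. A match is a description of the letters and not of a bound site. The Tnmd window had 38.4% G and C bases, against 54.4% for Angptl7, 54.8% for Cytl1 and 60.4% for Chad.

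The kept cells had medians of 5748 to 10698 UMIs and 2390 to 3560 genes per library, and any pair of libraries shared 3 to 44 cell barcodes (3 for the adult pair). In the uninjured adult library, 93.0% of members and 95.9% of Tnmd cells had Xist and no Y-linked transcript, and no cell of either group had the reverse. Members had medians of 9906 UMIs, 3114 genes and 1.56% mitochondrial UMIs, against 12446 UMIs, 3556 genes and 2.00% in Tnmd cells. Members were thus the shallower cells, and Tnmd falls below 2 UMIs more easily in a shallow cell. When every cell was thinned to 5000 UMIs before the rule was applied, which left 4799 cells, the share of members was 15.5% instead of 11.3%, so their number depends on depth. Other shares of thinned cells below are at 2000 UMIs, which left out 21 members and 18 Tnmd cells.

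Members made up 11.3% [10.5, 12.1] of the uninjured adult cells and 0.0865% [0.0236, 0.221] of the injured adult cells. None was found by the same rule in the neonates, where a count of 0, read as at most 3 cells, allows a share of up to 0.0288% in the uninjured library and 0.0202% in the injured one. The exact binomial intervals reach 0.0354% and 0.0248%. The combination of Angptl7 and Chad alone, whatever the Tnmd count, was met by 1884 uninjured adult cells (30.8%), 40 injured adult cells (0.865%), 0 uninjured neonatal cells and 11 injured neonatal cells. Scarcity after injury and in neonates was therefore already present before the Tnmd limit was applied. Within Angptl7 and Chad cells under the Ptprc and Cdh5 limits, members were 38.5% [36.2, 40.8] of 1789 cells in the uninjured adult and 12.1% [3.40, 28.2] of 33 in the injured adult. A lower number of such cells and a lower transcript level per cell cannot be told apart in these counts, since the rule is a threshold on transcripts.

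**Figure D1:**
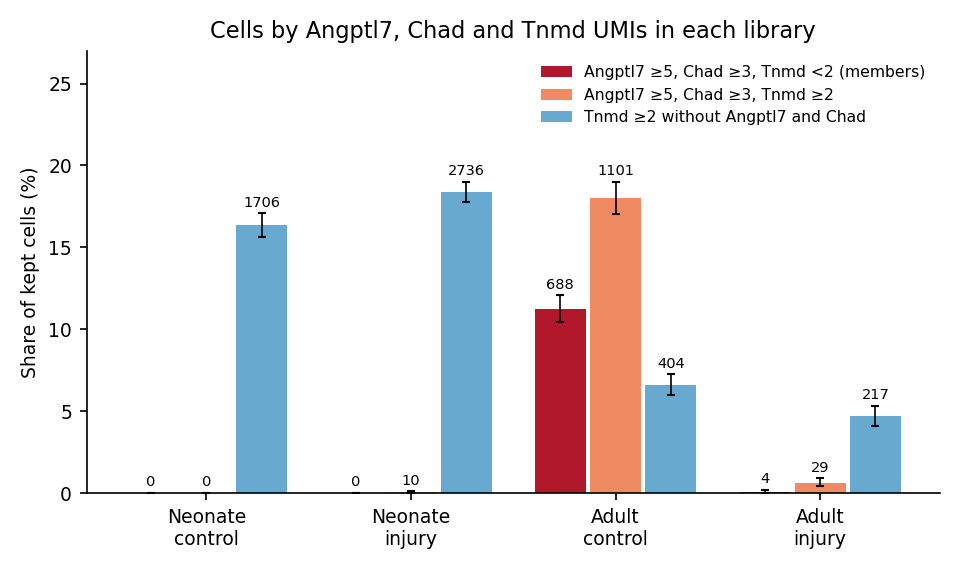
Share of kept cells (%, bars start at 0) in each of the 4 libraries that were members, Tnmd cells with Angptl7 and Chad, or Tnmd cells without them; error bars are exact binomial 95% intervals and the number above each bar counts the cells. Members (688 cells) and Tnmd cells with Angptl7 and Chad (1101 cells) are concentrated in the uninjured adult library, while neonatal Tnmd cells nearly all lack the pair.

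Of the 688 members of the uninjured adult, 482 (70.1%) had 0 Tnmd UMIs and 206 had 1. In the other direction, 1101 of the 1505 Tnmd cells (73.2%) also met the Angptl7 and Chad thresholds, so the pair of genes did not separate members from Tnmd cells. Transcripts of both genes were also found in leukocytes: after thinning to 2000 UMIs, 20% of Ptprc cells (those with at least 2 Ptprc UMIs) had an Angptl7 UMI and 10.3% a Chad UMI. Without thinning, at a median depth of 9397 UMIs, these shares were 51.3% and 31.2%. Free RNA and doublets were not separated as their source, and the members' own shares were set by the rule. The thresholds were met by 7 of 308 Ptprc cells, which had a median of 21125 UMIs, and by 34 of 1061 cells with at least 2 Cdh5 UMIs.

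The members' own level of Angptl7 had a median of 102.9 UMIs per 10000 UMIs of the cell, with 80% of the cells between 32.9 and 240.7. Chad had a median of 48.0 per 10000, with 80% of cells between 12.9 and 102.8. Both genes were thus mostly far above their thresholds. Only 7 members had exactly 5 Angptl7 UMIs and 15 had exactly 3 Chad UMIs, while 5 cells missed the rule by having 4 Angptl7 UMIs and 25 by having 2 Chad UMIs. The cells at the Tnmd edge were more numerous. Cells with 1 Tnmd UMI (206 members) and cells with 2 (139 non-members) had 4704 and 4019 CPM of Clu, 5308 and 5273 CPM of Comp, and 7941 and 8863 CPM of Col1a1, where CPM is the count per 1000000 UMIs summed over the cells. Other genes were further apart at this edge: Igfbp5 was at 2829 and 1555 CPM, Cilp at 2634 and 1553, Cytl1 at 40.1 and 87.5, and Kera at 61.7 and 158.

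The label of these cells as tenocytes was set against the markers of 14 cell classes. Tenocyte markers (Tnmd, Scx, Mkx, Fmod, Kera, Thbs4, Cilp, Cilp2, Comp and Col1a1) summed to 20444 CPM in members, with all 10 above 25 CPM, against 50642 CPM in Tnmd cells. In other stromal cells, defined as those with at least 5 Dcn and 3 Col1a2 UMIs that were neither members nor Tnmd cells (1529 cells), the sum was 3848 CPM. The sum includes Tnmd, which divided the cells, and 29002 CPM of the Tnmd cells' sum was Col1a1. Single genes of the list went both ways, with Comp (5225 and 3055 CPM) and Cilp (3457 and 1215) higher in members than in Tnmd cells. The chondrocyte markers summed to 252 CPM in members, 133 in Tnmd cells and 49.0 in other stromal cells. Most of the members' sum was Sox9 at 137.6 CPM, with Col2a1, the collagen gene that defines cartilage, near 0 at 0.710 CPM, against 15.3 in Tnmd cells. Macrophage markers summed to 14.1 CPM, endothelial to 41.0, Schwann cell to 35.9 and muscle to 4.97, against 16.2, 44.7, 34.0 and 10.3 in Tnmd cells. Osteoblast markers summed to 203 CPM in members and 42.2 in Tnmd cells, nearly all of it Ibsp, synovial lining markers to 7984 and 6349, mostly Prg4, and mural markers to 184 and 284. Universal fibroblast markers (1182 and 1141 CPM) and interstitial fibroblast markers (293 and 379) were higher in other stromal cells, at 5514 and 733 CPM, and perineural markers summed to 2.84 and 3.98 CPM.

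Of the 3 marker genes of the label that the rule did not use, Clu and Comp were higher in members than in Tnmd cells and Cilp2 was close to equal. Angptl7 (ENSMUSG00000028989) was at 11996.5 CPM in members, 8833 in Tnmd cells and 488 in other stromal cells. Chad (ENSMUSG00000039084) was at 5419, 3613 and 61.2 CPM in the same order. These 2 genes chose the members, so their ratios are not compared. Clu was at 5052, 1546 and 107 CPM, giving a log2 ratio of members over Tnmd cells of 1.71 [1.69, 1.73]. Comp was at 5225, 3055 and 274 CPM, giving a log2 ratio of 0.77 [0.76, 0.79]. Cilp2 was at 1637, 1745 and 35.7 CPM, which is a log2 ratio of -0.09 [-0.12, -0.06]. Of these 3 genes, only Clu was at least 2-fold higher than in Tnmd cells, and all 3 were far above other stromal cells. Cell by cell, 95.8% of members and 72.6% of Tnmd cells had a Clu UMI. At 2000 UMIs the shares were 91.3% of members, 57.6% of Tnmd cells and 71.5% of Tnmd cells with Angptl7 and Chad. They were 26.2% of cells with at least 2 Cdh5 UMIs, 12.6% of other stromal cells and 7.33% of Ptprc cells.

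Across the transcriptome of the uninjured adult library, members and Tnmd cells were alike for most genes. Of 5564 genes with a mean of at least 25 CPM over both groups, 128 (2.3%) were at least 2-fold higher in members and 229 (4.12%) at least 2-fold lower, with a median log2 ratio of 0.06. Against the 1101 Tnmd cells that also had Angptl7 and Chad, a comparison chosen after the data were seen, 123 of 5446 genes (2.26%) were at least 2-fold higher and 160 (2.94%) lower. Of the 5564 genes, 110 were at least 2-fold higher and 175 at least 2-fold lower in members against both sets of Tnmd cells. These include genes that did not pass the 25 CPM limit in the second comparison. These counts describe 1 library, and the cells were divided by the Tnmd count, so nothing is read from their size.

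**Figure D2:**
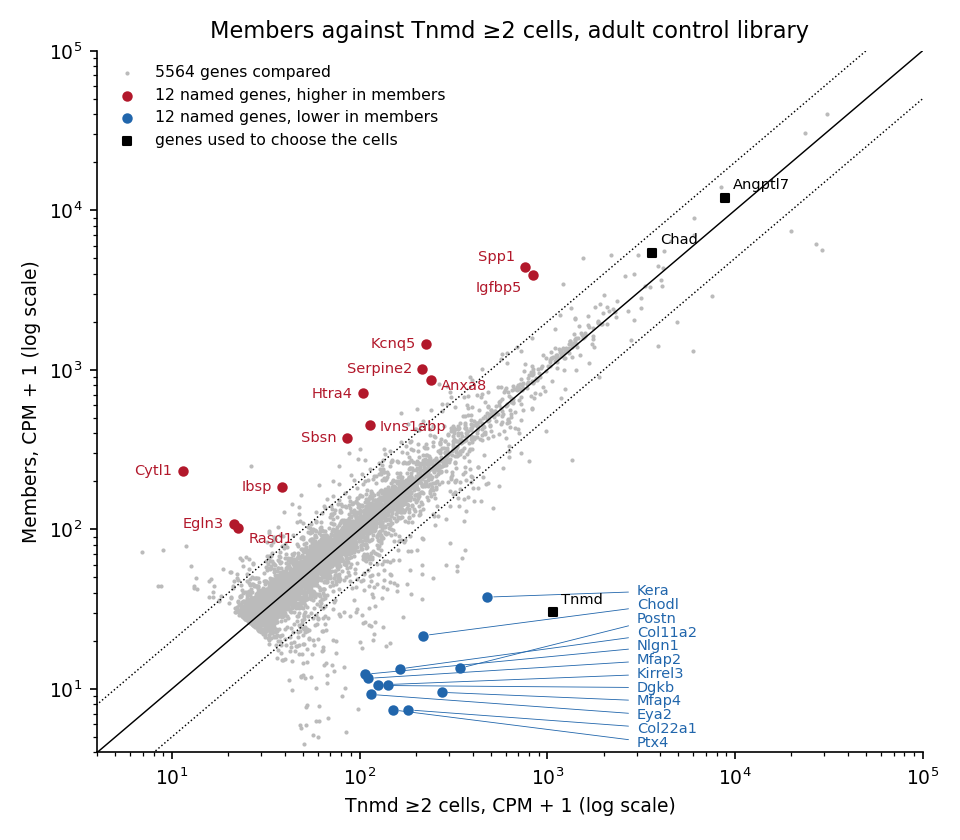
Level of each of 5564 genes in the 688 members (vertical axis) and in the 1505 Tnmd cells (horizontal axis) of the uninjured adult library, in CPM + 1 on log axes; the solid line marks equal levels and dotted lines a 2-fold difference. Most genes lie near the line, with Cytl1, Htra4, Kcnq5 and Spp1 above it and Mfap4, Col22a1 and Ptx4 below it.

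The 12 genes with the highest ratios began with Cytl1 (ENSMUSG00000062329), which encodes a small secreted protein known from cartilage. It was at 231 CPM in members, 10.4 in Tnmd cells and 4.30 in other stromal cells, a log2 ratio over Tnmd cells of 4.47 [4.26, 4.69]. Its transcripts sat in few cells: 12.6% of members had a Cytl1 UMI and the highest cell held 238. Endothelial cells (Cdh5 of at least 2) held Cytl1 at 92.1 CPM.

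Secreted proteins and matrix proteins of mineralized tissue were the next group among these genes. Htra4, a secreted serine protease gene, was at 710 CPM in members and 104 in Tnmd cells, a log2 ratio of 2.78 [2.70, 2.85]. Spp1, which encodes the phosphoprotein osteopontin, was at 4403 and 763 CPM (2.53 [2.50, 2.56]). Ibsp, the gene of bone sialoprotein, was at 183 and 37.8 CPM (2.28 [2.14, 2.41]). Both proteins bind integrins and mineral. The osteoblast genes Sp7 and Bglap were nevertheless at or near 0, with Sp7 at 0 CPM and Bglap at 0.820 CPM in the members that had fewer than 5 UMIs of both Cytl1 and Ibsp. Igfbp5, which encodes an insulin-like growth factor binding protein, was at 3916 and 834 CPM (2.23 [2.20, 2.26]), but other stromal cells also held 2534 CPM. Serpine2, a secreted protease inhibitor gene, was at 1017 and 215 CPM (2.24 [2.18, 2.29]), with 306 CPM in other stromal cells.

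The remaining genes encode intracellular, membrane or epithelial proteins. Kcnq5, a voltage-gated potassium channel gene, was at 1448 CPM in members, 226 in Tnmd cells and 129 in other stromal cells, a log2 ratio over Tnmd cells of 2.68 [2.63, 2.73]. Egln3, a prolyl hydroxylase gene that responds to low oxygen, was at 107 and 20.5 CPM (2.39 [2.21, 2.57]). Rasd1, a Ras-like GTPase gene induced by dexamethasone, was at 101 and 21.5 CPM (2.23 [2.06, 2.41]), with 110 CPM in endothelial cells. Sbsn (2.15), Ivns1abp (2.00) and Anxa8 (1.85, an annexin gene) completed the 12. Sbsn was at 375 CPM in members and 282 in other stromal cells, and Anxa8 at 862 and 403. Egln3, Rasd1 and Sbsn had a UMI in 28.2%, 28.8% and 32.8% of members, against 8.57%, 9.63% and 16.6% of Tnmd cells. In other stromal cells 42.0% had a Sbsn UMI. Kcnq5, Serpine2 and Anxa8 were broadly spread, with a UMI in 72.8%, 73.3% and 89.1% of members, against 25.8%, 29.4% and 51.3% of Tnmd cells. In other stromal cells the shares were 16.5%, 69.3% and 48.9%, so Serpine2 was nearly as widespread there as in members. At 2000 UMIs per cell these shares were 59.8%, 56.8% and 69.9% in members, and 16.1% and 16.4% for Kcnq5 and Serpine2 in Tnmd cells.

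The 12 genes with the lowest ratios were led by Mfap4, the gene of a microfibril-associated glycoprotein, at 8.52 CPM in members and 272 in Tnmd cells, a log2 ratio of -4.99 [-5.39, -4.63]. Kera, the gene of the proteoglycan keratocan, was at 36.6 and 479 CPM (-3.71 [-3.89, -3.53]). Col11a2, a collagen XI chain gene, was at 12.4 and 163 CPM (-3.71 [-4.05, -3.41]). Ptx4 (-4.53), Eya2 (-3.78), Mfap2 (-3.36) and Nlgn1 (-3.22) were of the same order. These genes were also low against Tnmd cells that had Angptl7 and Chad, where Mfap4 was at 264 CPM and Kera at 460.

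Of the 12 low genes, 7 had most of their Tnmd-cell UMIs in the 404 Tnmd cells that lacked Angptl7 and Chad, which held 22.4% of all UMIs of Tnmd cells. Postn, which encodes the matricellular protein periostin, was at 12.5 CPM in members, 76.9 in Tnmd cells with the pair and 1260 in those without. Col22a1, a collagen gene of the tendon and muscle junction, was at 6.39, 33.0 and 694 CPM. Kirrel3 (9.66, 36.7 and 499 CPM), Dgkb (9.51, 32.4 and 443 CPM) and Chodl (20.6, 68.6 and 733 CPM) had the same order. Ptx4 and Nlgn1 were less one-sided, with 60.3% and 52.3% of their UMIs in the cells without the pair. Against Tnmd cells with the pair the log2 ratios of the first 5 lay between -2.61 for Postn and -1.73 for Chodl, where the ratios against all Tnmd cells had lain between -4.81 and -3.40.

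Gene lists describe these differences by function, each with the number of genes that passed the 25 CPM limit. Their counts stand beside shares of 2.3% higher and 4.12% lower over all genes compared. Of the 10 fibrillar collagen genes, 7 passed, of which 5 were lower in members by at least 2-fold and 0 were higher by as much. Their median log2 ratio was -1.26, against 0.06 over all genes compared. Col1a1 was at 5606 CPM in members and 29002 in Tnmd cells, a log2 ratio of -2.37, and Col1a2 at 6137 and 26959.5 (-2.14). Col11a1 (-1.26) and Col3a1 (-1.07, but -0.71 against Tnmd cells with Angptl7 and Chad) were also lower, while Col5a1 (-0.18) and Col5a2 (-0.08) differed little. Col3a1 was highest in other stromal cells, at 4526 CPM against 894.8 in members. Of the fibril-associated and beaded collagens, 3 of 9 were lower by at least 2-fold and 0 higher (median -0.94), led by Col22a1 (-4.81), Col8a1 (-1.86) and Col12a1 (-1.57).

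Genes of tendon identity were divided. Of 15 that passed, 6 were lower by at least 2-fold and 1 was higher, and the median was -0.34. Scx, the scleraxis gene, was at 48.4 CPM in members, 244 in Tnmd cells and 4.51 in other stromal cells, a log2 ratio over Tnmd cells of -2.33. Fmod, which encodes the collagen-binding proteoglycan fibromodulin, was at 1315 and 5985 CPM (-2.19), and Thbs4, a thrombospondin gene, at 2889 and 7523 (-1.38). Mkx, the gene of the transcription factor Mohawk, differed less, at 201 and 321 CPM (-0.68). Cilp, a relative of Cilp2, was the higher gene, at 3457 and 1215 CPM (1.51).

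Small proteoglycans and matricellular genes were lower or alike. Of 10 small leucine-rich proteoglycan genes, 4 were lower by 2-fold or more and 0 higher (median -0.26), namely Kera, Fmod, Ogn (-1.25) and Aspn (-1.09, but -0.38 against Tnmd cells with the pair). Decorin (Dcn) was at 30645 CPM in members and 23574.5 in Tnmd cells. Of 18 thrombospondin, tenascin and other matricellular genes, 8 were lower by 2-fold or more and 0 higher (median -0.32). Fbln7 (-3.28), the tenascin gene Tnc (-2.60), Sparcl1 (-2.50, but -0.98 against Tnmd cells with the pair) and Fbln5 (-2.05) were among those lower, and Sparc, at 7432 and 19969 CPM, had a ratio of -1.43.

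**Figure D3:**
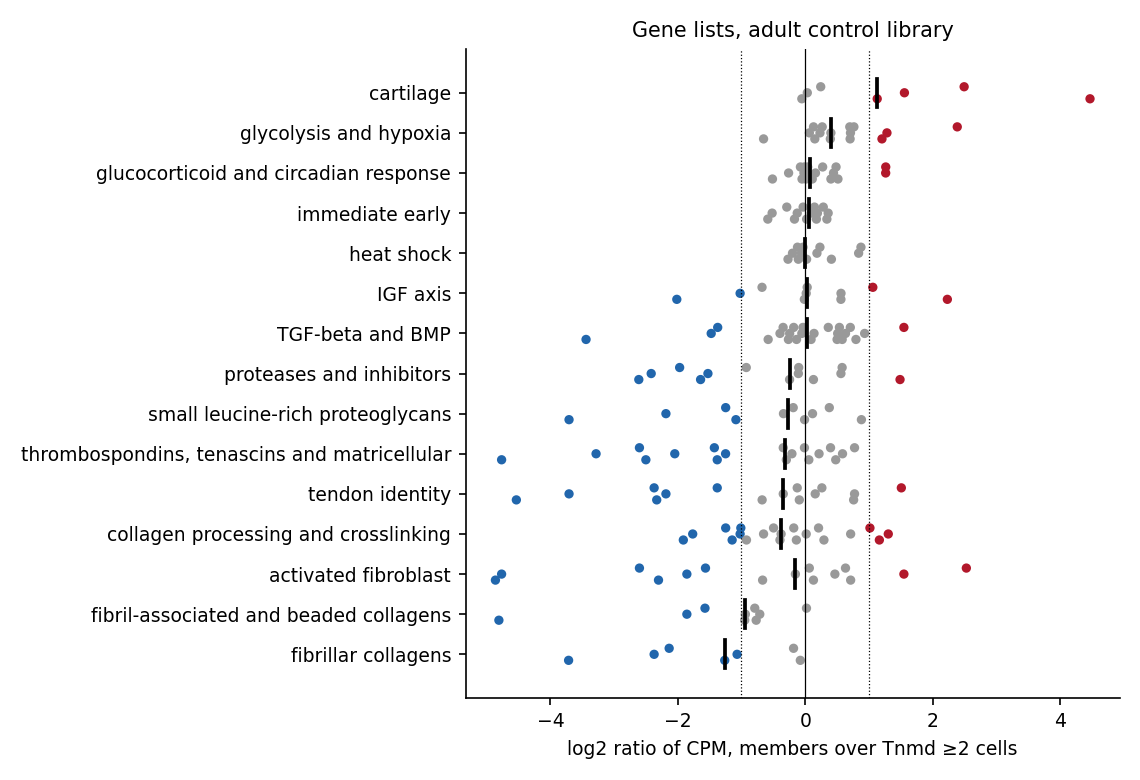
Log2 ratio of CPM, members over Tnmd cells of the uninjured adult library, for the genes of 15 lists that passed the 25 CPM limit; each dot is a gene (red at least 2-fold higher, blue at least 2-fold lower, grey between), and black bars are list medians. Fibrillar collagens have the lowest median (-1.26) and cartilage genes the highest (1.13), while immediate early and heat shock genes all lie within 2-fold.

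Cartilage genes were divided between the few that passed the 25 CPM limit and the rest. Of 20 genes, 7 passed, of which 4 were higher by 2-fold or more and 0 lower (median 1.13): Cytl1, the link protein gene Hapln1 (43.4 and 7.70 CPM, giving a log2 ratio of 2.49), Sox9 (138 and 46.7 CPM, 1.56) and Sox5 (474 and 217 CPM, 1.13). The transcription factors Sox9 and Sox5 act in chondrocytes. Sox6 (0.03), Ucma (0.24) and Pth1r (-0.05) differed little. Below the limit the directions were mixed. Col2a1 had 5 UMIs in members and 300 in Tnmd cells (0.710 and 15.3 CPM, -4.29), and Matn3, a gene of cartilage matrix, was at 1.70 and 22.9 CPM (-3.69), whereas the aggrecan gene Acan was at 36.6 and 9.58 (1.93). The median of the list ranged from 0.12, when genes with at least 5 UMIs were compared, to 1.73 over the 13 other settings tried. Of 6 synovial lining genes, Htra4 and Cd55 (1.15) were at least 2-fold higher, whereas the lubricin gene Prg4, which defines that lining, was at 7037 CPM in members, 6087 in Tnmd cells and 8586 in other stromal cells (0.21).

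Enzymes that modify and crosslink collagen were mixed, with 3 of 20 at least 2-fold higher and 6 lower (median -0.39). The lysyl oxidase-like genes Loxl1 (-1.91) and Loxl2 (-1.77), the collagen chaperone gene Serpinh1 (-1.25) and Pcolce (-1.15) were lower. P4ha2 (1.30), Plod2 (1.16) and Pcolce2 (1.02, but 0.79 against Tnmd cells with the pair) were higher. Of 13 protease and inhibitor genes, 1 was higher, the aggrecanase gene Adamts5 (1.49), and 5 were lower, led by the gelatinase gene Mmp2 (54.0 and 330 CPM, -2.61), Adamtsl1 (-2.42) and Mmp23 (-1.97). Adamts1 (-1.64) and the membrane metalloproteinase gene Mmp14 (-1.53) were less than 2-fold lower against Tnmd cells with Angptl7 and Chad, at -0.93 and -0.72.

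Growth factor and oxygen response genes included several differences. In the insulin-like growth factor axis, Igfbp5 and Htra3 (1.06, but 0.93 against Tnmd cells with the pair) were at least 2-fold higher, while Igf1 (44.2 and 179 CPM, -2.02) and the growth hormone receptor gene Ghr (-1.02) were lower, of 10 compared (median 0.02). Among 24 TGF-beta and BMP genes, Ltbp2 (1.55) was higher, Bmp5 (-3.44), Chrdl1 (-1.48) and Ltbp1 (-1.37) were lower, and the median was 0.03. The share higher in that list, 4.17%, was near the 2.3% over all genes, and the share lower was 12.5% against 4.12%. Of 15 glycolysis and hypoxia genes, 3 were higher and 0 lower (median 0.40), a share of 20% higher against 2.3% over all genes, namely Egln3, the phosphofructokinase gene Pfkp (1.28) and the glucose transporter gene Slc2a1 (1.20).

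Circadian and steroid response genes were mostly alike. Of 18 glucocorticoid and circadian response genes, 2 were higher and 0 lower (median 0.07). These were Myoc, the myocilin gene known from the eye, at 5264 and 2192 CPM (1.26), and the kinase gene Sgk1 (1.26). The steroid targets Fkbp5 (0.03), Tsc22d3 (-0.02) and Per1 (0.01) did not differ to a comparable degree.

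None of the 14 immediate early genes (median 0.06) and none of the 12 heat shock genes (median -0.01), which respond to tissue dissociation, was 2-fold apart. Fos was at 3337 CPM in members and 4079 in Tnmd cells. No gene of cell division (G2M) passed the 25 CPM limit. Of 15 activated fibroblast genes, 2 were higher, Spp1 and Ltbp2, and 6 were lower, led by Cthrc1 (1.70 and 51.6 CPM, -4.86), Postn and Tnc. The contractile genes Tagln (-2.30) and Acta2 (-1.57) were lower only against all Tnmd cells: against those with Angptl7 and Chad they stood at 0.52 and -0.05. Hemoglobin transcripts also differed, with Hbb-bs at 23.4 CPM in members and 133 in Tnmd cells, and their part in the other differences was not tested.

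When all Angptl7 and Chad cells were ordered by their Tnmd UMIs, the levels of the genes above differed by degrees across the threshold. The 7 classes, from 0 to at least 20 Tnmd UMIs, held 482, 206, 139, 171, 236, 239 and 316 cells. Angptl7 was at 11869 CPM in the lowest class and 10201 in the highest, and Chad at 5277 and 4071. Col1a1 was at 4459, 7941, 8863, 17049, 19863, 34036 and 52315 CPM through the 7 classes. Fmod went from 1012 to 9522 CPM, Scx from 44.5 to 323 and Mfap4 from 8.05 to 461. Angptl7 stayed between 9655 and 12931 CPM and Chad between 3738 and 6215, while Col1a1 and Fmod were higher in each class than in the one before.

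Several genes that were higher in members ran the other way over the same classes. Clu was at 5223, 4704, 4019, 2921, 2384, 1448 and 1099 CPM, lower at each step. Htra4 went from 767 to 38.3 CPM, Kcnq5 from 1610 to 59.7, Serpine2 from 1057 to 34.4 and Igfbp5 from 4449 to 465. Myoc was near 5287 CPM in cells with no Tnmd, highest at 2 Tnmd UMIs with 6003, and at 922 in the highest class. Spp1 was at 5357 CPM at 0 Tnmd UMIs, 2463 at 1, 2147 at 2, 2480 at 3 to 4, and 351 in the highest class. Neither gene fell at each step. Cytl1 was at 325 CPM with no Tnmd UMI, 40.1 at 1, 87.5 at 2 and 2.04 in the highest class, so it did not fall at each step. Of the other marker genes, Comp went from 5184 to 2892 CPM, while Cilp2 was higher in the highest class, at 2307 CPM against 1563. Prg4 was at 6526 CPM in the lowest class, 9490 at 2 Tnmd UMIs and 5143 in the highest. Median depth also differed, from 9546 UMIs per cell in the lowest class to 18458 in the highest, and its part in the order was not tested.

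**Figure D4:**
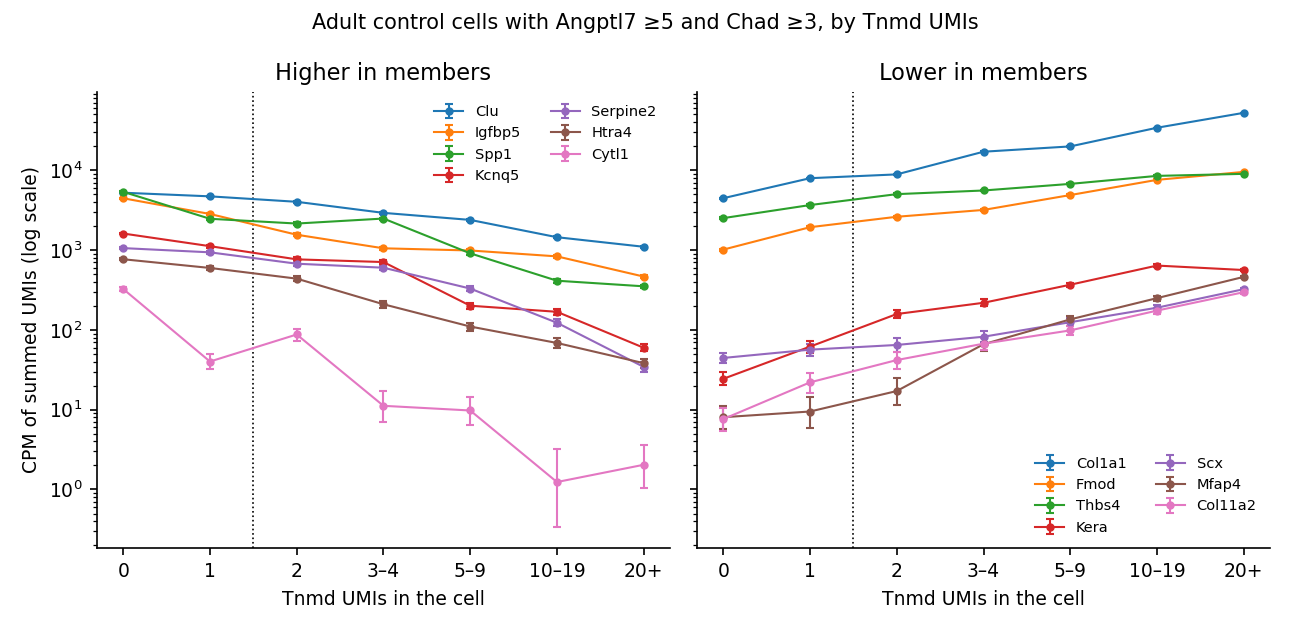
CPM (log axis) of 14 genes in uninjured adult cells with Angptl7 and Chad, divided into 7 classes by Tnmd UMIs (horizontal axis); error bars are exact Poisson 95% intervals and the dotted line separates members (left) from Tnmd cells. Clu is lower at each step from 5223 to 1099 CPM, and Col1a1 is higher at each step from 4459 to 52315 CPM.

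The neighbourhood of members in expression space was computed without the genes of the rule. Among the 15 nearest cells of each member, 62.7% were members, which made up 18.5% of the cells included. Another 30.4% were Tnmd cells with Angptl7 and Chad (29.6% of cells), 1.48% were Tnmd cells without the pair (10.9%) and 5.45% were other stromal cells (41.1%). Tnmd cells with the pair had 17.2% members among their neighbours, against the same 18.5%. Members thus neighboured each other most, Tnmd cells with the pair at about their share of all cells, and the remaining cells below theirs.

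Members also varied among themselves. The first principal component over the 688 cells held 1.98% of the variance. Its correlation with Col1a1 was 0.52 and with Htra4 -0.65, and with depth (log10 UMIs) -0.30 and mitochondrial share 0.49, as descriptions over cells of 1 library. Along it the members were divided into 3 parts of 230, 229 and 229 cells. Col1a1, Clu and Sox9 are among the genes with the largest weights on this component, so an order of their levels along it follows from the division and is a description. In these parts Col1a1 was at 2540, 4263 and 11291 CPM, and Fmod at 875, 1237 and 1996. Htra4 was at 1190, 676 and 112 CPM, Clu at 6905, 5216 and 2387, Sox9 at 271, 81.7 and 26.0, and Cilp at 5783, 2843 and 1086. Angptl7 had no such order, at 10355, 13714 and 12145 CPM. Median depth was 11179, 10046 and 7778 UMIs and Fos was at 4122, 3142 and 2524 CPM in the same parts, and the part of these in the order was not tested.

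Most Cytl1 and Ibsp transcripts of the members lay in few cells, which were picked out after their values were seen. The 40 members with at least 5 UMIs of Cytl1 and fewer of Ibsp held 88.6% of the members' Cytl1 transcripts, and the 38 with at least 5 of Ibsp and fewer of Cytl1 held 91.6% of the Ibsp transcripts. Another 2 cells had at least 5 of both, and 608 had fewer of each. Nothing is read from the size of that overlap. Cytl1 cells held Acan, the aggrecan gene, at 232 CPM against 22.6 in the 608, and Dmkn at 397 against 13.5. Over all members, 9.30% had an Acan UMI and the highest cell held 63. How evenly the transcripts of these and the following genes were spread within the picked cells was not examined. Their Fmod was at 312 CPM against 1468. Ibsp cells held the acute phase gene Saa3 at 349 CPM against 0.164, the fibroblast gene Pi16 at 438 against 19.03 and Spp1 at 9391 against 3781. Clu was at 8983 CPM in Cytl1 cells and 7710 in Ibsp cells, against 4568 in the 608. Of Cytl1 cells 85% had 0 Tnmd UMIs, of Ibsp cells 76.3%, and of the 608 the share was 68.6%.

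Injured adult tendon held 4 members, too few for a gene comparison. Their Angptl7 UMIs were 257, 62, 5 and 21, and their Chad UMIs 79, 125, 3 and 102. The third cell only just met the rule, and with 1 Comp, 1 Cilp2 and 0 Clu UMIs among 20034 it lacked the other marker genes. The other 3 held 99, 213 and 190 Comp UMIs, and 5, 53 and 159 Clu UMIs. The fourth cell also held 511 Spp1 UMIs, against 5 and 20 in the first and second.

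The 5 marker genes of the members were also followed in the 246 Tnmd cells of the injured library, of which 217 lacked Angptl7 and Chad. These cells had a median of 22213 UMIs against 12446 in the 1505 uninjured Tnmd cells, and CPM are shares of the UMIs. Angptl7 was at 8833 CPM in uninjured and 347 in injured Tnmd cells, a log2 ratio of -4.67 [-4.73, -4.61]. Chad was at 3613 and 255 CPM (-3.82 [-3.90, -3.75]), and Clu at 1546 and 61.5 (-4.65 [-4.80, -4.51]). Comp was at 3055 and 506 CPM (-2.59) and Cilp2 at 1745 and 239 (-2.87). All 5 marker genes were at least 2-fold lower in the pooled Tnmd cells of the injured library. Of 5827 genes compared there, 7.96% were lower by as much and 12.7% higher. Angptl7 and Chad chose the members and the markers were picked with these data known, so nothing is read from this count. Tnmd itself, which chose the cells, was at 1073 and 527 CPM. The pooled levels mix different cells: 1101 of 1505 uninjured Tnmd cells met the Angptl7 and Chad thresholds, but 29 of 246 injured ones, and these 29 held 1782 of the 2156 Angptl7 UMIs. In Tnmd cells with the pair, Angptl7 was at 10755 CPM in the uninjured and 3961 in the injured library, Clu at 1925 and 331, Comp at 3579 and 2554 and Cilp2 at 2043 and 2152. In Tnmd cells without it, Angptl7 was at 2173 and 64.9 CPM. Among cells with the pair, Cilp2 was therefore not lower and Comp was lower by less than 2-fold. Ptprc was at 0.102 and 3.22 CPM in all uninjured and injured Tnmd cells, and its part in these differences was not tested.

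The injured Tnmd cells were compared with the same uninjured Tnmd cells that the members were compared with, so the ratios share those cells. Of the 12 genes highest in members, 10 were at least 2-fold lower after injury in Tnmd cells and 0 higher (median -2.48). Over the 5827 genes with a mean of at least 25 CPM, 7.96% were lower and 12.7% higher by as much. Cytl1, Egln3, Ibsp and Rasd1 were below that mean, so the shares do not cover them. The ratios ran from -5.43 [-11.33, -3.52] for Cytl1, with 1 UMI after injury, to -0.29 for Ivns1abp. Htra4 was at 104 CPM in uninjured and 2.57 in injured Tnmd cells, Kcnq5 at 226 and 23.5, and Ibsp at 37.8 and 2.73. Myoc was at 2192 and 62.9 CPM (-5.12). Spp1 was less far apart, at 763 and 341 CPM (-1.16), and Igfbp5 at 834 and 418 (-0.997). These levels pool cells with and without the pair, whose shares differed between the libraries. In uninjured and injured cells with it, Spp1 was at 910 and 62.2 CPM, Serpine2 at 241 and 8.89 and Anxa8 at 274 and 44.5. In cells without it they were at 251 and 363, 128 and 84.8, and 116 and 79.9 CPM. Htra4 (120 and 2.22 CPM with it, 47.4 and 2.60 without) and Kcnq5 (260 and 22.2, 105 and 23.6) were lower in both.

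Of the 12 genes lowest in members, 7 were at least 2-fold lower after injury in Tnmd cells and 1 was higher, with a median of -1.61. The shares over all genes compared were 7.96% lower and 12.7% higher. Postn, the higher one, was at 342 CPM in uninjured and 3975 in injured Tnmd cells (3.54). Mfap4 was at 272 and 275 (0.02) and Ptx4 at 150 and 17.1 (-3.13). These pooled levels mix cells with and without the pair. In cells with it, Postn was at 76.9 and 253 CPM, Mfap4 at 264 and 1002 and Ptx4 at 76.6 and 80.0. In cells without it they were at 1260 and 4266, 300 and 219, and 403 and 12.1 CPM. Col1a1, which is not among the 12, was at 29002 and 40699 in all Tnmd cells (0.49). Of 5 cartilage genes followed in all Tnmd cells, Sox9 (46.7 and 171 CPM, 1.87) and Acan (9.58 and 304, 4.98) were higher after injury. Hapln1 (7.70 and 6.92 CPM, -0.14) and Col2a1 (15.3 and 15.6, 0.03) were close to equal, and Cytl1 was lower. Injured Tnmd cells with the pair held Sox9 at 15.6 CPM (7 UMIs) and Acan at 102, and those without it 183 and 320. Uninjured Tnmd cells with the pair held Sox9 at 39.1 to 90.7 CPM over the Tnmd classes, and Acan at 4.65 to 13.3. Among cells with the pair, Acan was thus higher after injury and Sox9 was not. In other stromal cells, of which the injured library held 1452, Angptl7 was at 488 and 15.9 CPM (-4.94), Htra4 at 114 and 3.58 (-4.99) and Clu at 107 and 8.28 (-3.69), while Spp1 was at 126 and 278 (1.14).

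**Figure D5:**
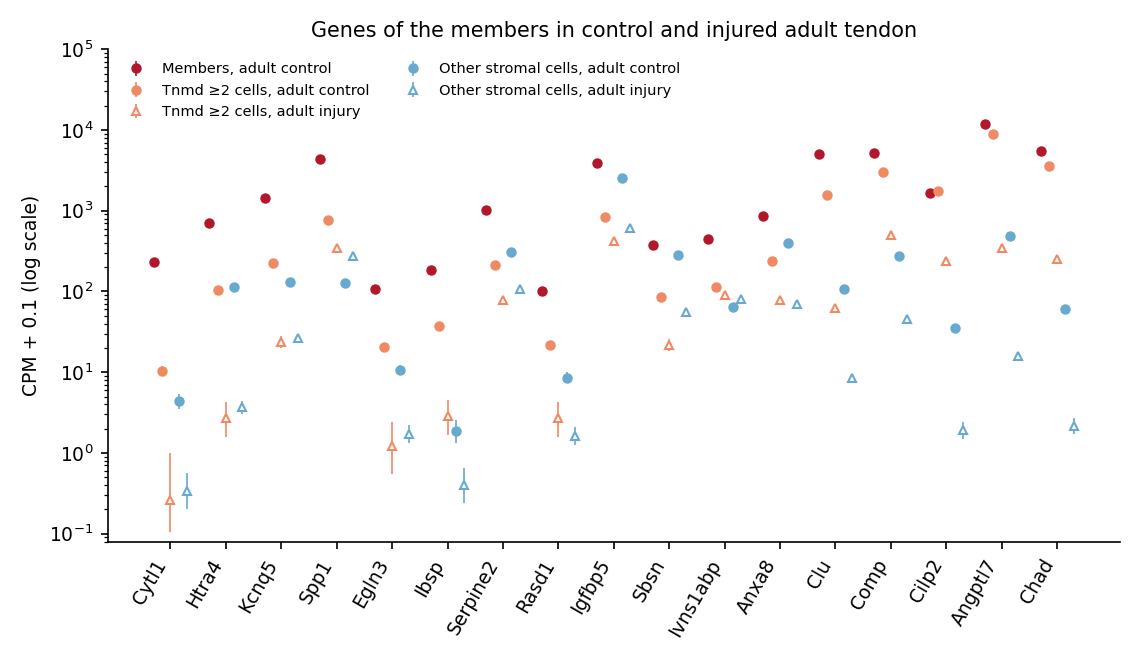
CPM + 0.1 (log axis) of the 12 genes highest in members and the 5 marker genes in members and in Tnmd and other stromal cells of the uninjured (circles) and injured (triangles) adult libraries; bars are exact Poisson 95% intervals. Angptl7 lies at 8833 CPM in uninjured and 347 CPM in injured Tnmd cells, and Ivns1abp shows little difference.

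Neonatal Tnmd cells held little of the pair. Angptl7 was at 5.83 CPM in the 1706 uninjured neonatal Tnmd cells and 32.7 in the 2746 injured ones, and Chad at 57.5 and 35.5. Clu was at 27.4 and 26.0 CPM, and Comp at 194 and 202. Each of these levels was below that in injured adult Tnmd cells.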

How the data were processed

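Libraries were assigned to 4 groups from the ages and injury states that the labels state. The authors deposited a count of UMIs for 33696 genes in each barcode. Cell Ranger 8.0.1 is named in the file headers, and the build GRCm39 in the submitters' processing notes. The members, gene lists and markers were chosen with earlier results of these data known. Each group's UMIs were added up and expressed as CPM; log2 ratios had 0.5 counts added to each sum. Genes with a mean of at least 25 CPM over both groups were compared, and 2-fold was the limit. Named genes were the 12 highest and 12 lowest ratios for genes reaching 100 CPM in either group, without genes of the rule, mitochondrial, ribosomal, predicted, hemoglobin, Xist and Y-linked genes or genes over 10 times higher in Ptprc or Cdh5 cells, plus up to 5 genes with the largest ratios per list and the 5 markers. Any other gene named was chosen after its values were seen. Intervals are exact Poisson (CPM) or exact binomial (shares and ratios). Neighbours used 1500 variable genes and 30 components. Doublets were kept, since the rule has no such step. Scrublet removal (scanpy 1.11.5) and TMM scaling (edgeR 4.0.16) were among the alternatives. The ratio and interval steps were tested on simulated Poisson counts drawn from pooled gene means. Such counts have no spread between cells, so this does not show that the intervals cover it. With 4 members in the injured adult, the planned gene comparisons of members with Tnmd cells there, and of members between adult libraries, were not made. There was 1 library per group. The summary of 1 gene list is not reported here.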

Additional observations from a re-analysis of the deposited data

Results flagged for a closer look

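In the injured neonatal library, 10 Tnmd cells also had at least 5 Angptl7 and 3 Chad UMIs, against 0 in the uninjured neonatal library. No comparison above uses them. They held Angptl7 at 809.8 CPM and Chad at 553 CPM from 82 and 56 UMIs, and Clu at 39.5 CPM. Spp1 and Cytl1 had 0 UMIs in them.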

How the results depend on the processing

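Members were 11.3% of uninjured adult cells by the rule, 7.88% when Tnmd had to be 0, 10.2% with at least 10 Angptl7 and 6 Chad UMIs, and 15.5% when cells were thinned to 5000 UMIs, which lowers Tnmd counts and leaves out shallow cells. A stricter cell filter gave 11.4% and removal of doublets 11.4%. In the injured adult the share stayed between 0.0432% and 0.147% over 5 alternatives. The counts of 128 genes higher and 229 lower became 225 and 530 against Tnmd cells without Angptl7 and Chad, and 990 and 2206 of 17282 genes when genes with at least 5 UMIs were compared. Over the other settings the counts stayed between 118 and 151 higher and between 160 and 268 lower. All 24 genes named as highest or lowest kept their direction and at least 2-fold difference in 13 settings, 2 of which were chosen after the data were seen. The genes were picked for the most extreme ratios in the same library, which every setting reuses, so this was likely beforehand and is not a check. The median log2 ratio of all genes lay between -0.13 and 0.11 over these settings. Alternatives for the injured members were not run for genes, since 4 cells gave no gene counts. No paired analysis was possible because each group held 1 library. Depth limits what can be said of rare transcripts in members, and of any member in the neonatal libraries. The uninjured neonatal library was not shallower than the uninjured adult one, with medians of 10698 and 9787 UMIs, while the injured neonatal one had 5748. Doublet removal took out 23 of the 688 members and 93 of the 1505 Tnmd cells.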
